A study of Mus musculus with 6 samples.

Results

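The immunoglobulin variable, joining and constant genes and the J chain gene were described in DP42 cells, a murine multiple myeloma line, under 3 culture conditions. Members were chosen by gene symbol among array probe sets named with a single gene, with the brightest probe set kept for each gene and the unrelated helicase gene Ighmbp2 left out. This gave 21 of 22180 genes: 17 variable genes (13 of the kappa light chain, 3 of the heavy chain and 1 of the lambda light chain), the constant genes Ighm and Ighg3, the joining segment Igkj1 and Jchain. All 21 had an entry in the reference gene table, which lists 17 V segments, 2 C regions, 1 J segment and 1 protein-coding gene. Other immunoglobulin genes, such as the kappa constant gene, were not analysed here.

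Total RNA was measured on Affymetrix arrays after 24 h of culture in each of 3 groups of 2 arrays: DP42 cells with mouse neutrophils, called "neutrophils (IMC)" in the labels, DP42 cells with mouse B cells, and DP42 cells alone. For the co-culture arrays the titles name the partner cell, while the cell type label is DP42 and the descriptions name myeloma cells. They are taken here as DP42 cells on those labels. Co-cultured cells were separated by flow cytometry, and the submitters used co-culture with B cells as their control. No genotype, strain or transgene is given in the labels, nor whether DP42 is a single clone or whether both arrays of a condition stem from different cultures. The p-values therefore reflect array-to-array spread alone, possibly a technical one. The comparisons of either co-culture with culture alone share the same 2 alone arrays.

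Antibodies are built from paired heavy and light chains, and each chain joins a variable domain to a constant region. In a developing B cell, recombination selects a single variable segment from each locus it joins, so a clone of B-lineage cells usually transcribes few variable genes strongly, while a mixed B-cell population transcribes many. Heavy chains first pair with a surrogate light chain in pre-B cells. After activation, B cells can switch from the mu constant gene to another, and plasma cells secrete antibody, with the J chain linking the units of IgM and IgA. Variable genes of a family are close copies, so a probe set can also register relatives, and each value below belongs to a probe set named for the gene rather than to a proven transcript.

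DP42 cells cultured alone had 3 immunoglobulin genes above the 90th percentile of all genes on both alone arrays, which stood at 10.21 and 10.20 (log2). These were Ighm, Iglv1 and Igkv5-43. They make 14.3% of the 21 members, against 9.69% of all genes. In all, 7 members lay above the median gene on both alone arrays, and 12 lay under the lower quartile on each of the 6 arrays, a range in which no signal above background was shown. A probe set's signal also depends on its probes, so these positions describe probe sets and do not rank transcripts against each other.

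Ighm, the constant gene of the mu heavy chain of IgM, stood at 13.27 and 13.35 with neutrophils, 13.34 and 13.28 with B cells, and 13.35 and 13.30 in cells alone (log2). The 3 groups overlapped. Its difference was -0.01 ± 0.09 (SE) for B cells minus alone, 0.00 ± 0.09 for neutrophils minus B cells and -0.01 ± 0.09 for neutrophils minus alone. The 95% interval of the first ran from -0.22 to 0.20, or a fold of 0.856 to 1.15.

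Iglv1, a variable gene of the lambda light chain, stood at 11.57 and 11.29 with neutrophils, 11.51 and 11.62 with B cells, and 11.59 and 11.52 alone. The groups overlapped, with neutrophil replicate 2 the lowest array. The interval for B cells minus alone ran from -0.25 to 0.27, and that for neutrophils minus alone from -0.39 to 0.14. Igkv5-43, a variable gene of the kappa light chain, stood at 10.49 and 10.47 with neutrophils, 10.53 and 10.52 with B cells, and 10.45 and 10.59 alone. Both neutrophil arrays lay below both B-cell arrays, at a difference of -0.04 ± 0.09 that did not pass (limma adjusted p = 0.780). The other 2 probe sets named for Igkv5-43 were dim, averaging 4.63 and 4.02 in cells alone. Probe sets of both light chain loci were bright in the same cells. The highest olfactory or vomeronasal receptor gene, of a class that myeloma cells do not normally use, stood higher, at 11.90 and 11.92 alone. Such brightness therefore does not by itself show that a locus is expressed.

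**Figure D1:**
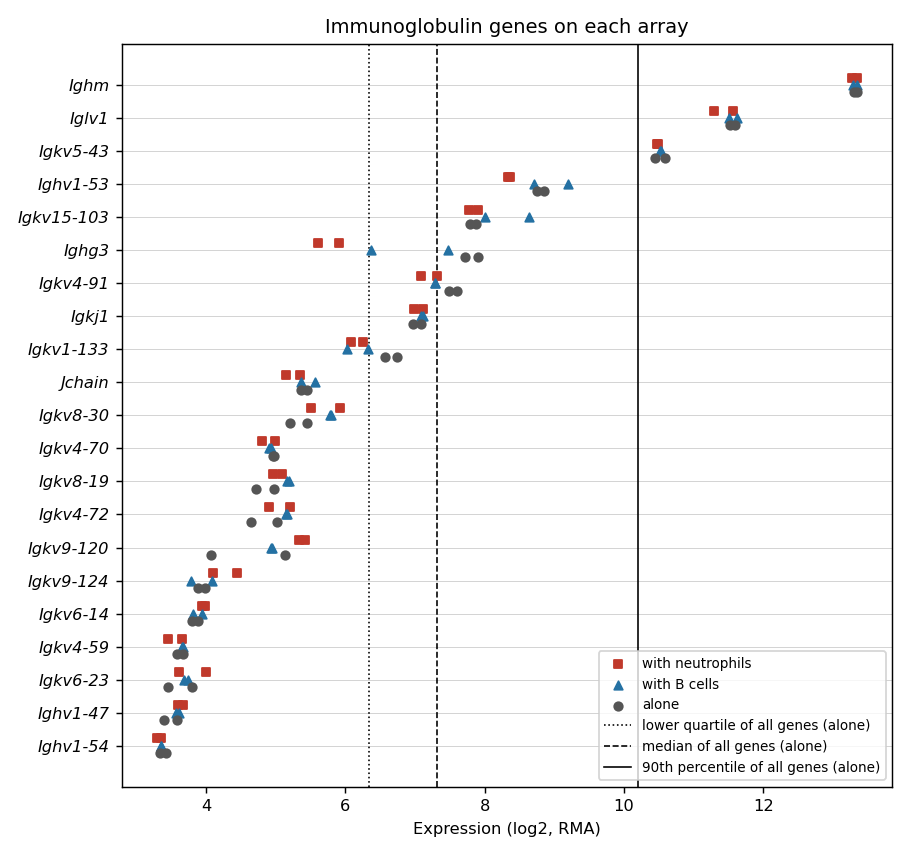
Expression of the 21 immunoglobulin genes on each array (x axis, log2), 2 points per group, with rows sorted by the mean in cells alone. Vertical lines mark the lower quartile, the median and the 90th percentile of all genes in cells alone. Ighm, Iglv1 and Igkv5-43 lie right of the 90th percentile in every group, and Ighg3 spreads most between groups.

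Between these bright genes and the dim ones stood Ighv1-53, a heavy chain variable gene, at a mean of 8.80 in cells alone, with the kappa variable genes Igkv15-103 at 7.83 and Igkv4-91 at 7.55 and the heavy chain constant gene Ighg3 at 7.81. Igkj1 stood at 7.03 and Igkv1-133 at 6.66, between the lower quartile and the median. The 12 dim members were Jchain, Ighv1-47, Ighv1-54 and 9 kappa variable genes, Igkv8-30, Igkv4-70, Igkv8-19, Igkv4-72, Igkv9-120, Igkv9-124, Igkv6-14, Igkv4-59 and Igkv6-23. Their means in cells alone ran from 3.38 for Ighv1-54 to 5.41 for Jchain.

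Jchain, which encodes the linker of polymeric IgM and IgA, stood at 5.35 and 5.15 with neutrophils, 5.56 and 5.37 with B cells, and 5.45 and 5.37 alone. It lay below the lower quartile of every array, although Ighm was bright. Both neutrophil arrays lay below all 4 others, by -0.16 ± 0.11 against alone and -0.22 ± 0.11 against B cells, and neither difference passed (adjusted p = 0.452 and 0.288).

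The 8 T cell receptor segment genes, which are short segments of the same kind from loci that B-lineage cells do not normally rearrange, had 0 members above the 90th percentile on both alone arrays. Their 8 values ran from 3.43 to 10.15 and from 3.45 to 10.20 on the alone arrays, while the 21 immunoglobulin genes ran from 3.40 to 13.35 and from 3.34 to 13.30. The medians went the other way, at 6.83 and 6.76 for the T cell receptor genes against 5.20 and 5.37 for the immunoglobulin genes.

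The first comparison asked whether many variable genes were higher together in DP42 cells cultured with B cells, as RNA of a mixed B-cell population would carry. The main fit called no gene at all in this comparison, so it cannot decide on a small joint rise. In limma's test 0 of 21 members passed for B cells minus alone, where 0% of all 22180 genes passed. At an unadjusted p under 0.05, 3 members were higher and 3 lower, beside 358 and 511 of all genes. The members' median difference was 0.04, against 0.00 for all genes, with 15 of 21 positive, beside 10980 of all 22180 genes. Those 15 stayed 15 with quantile normalisation and became 12 with arrays centred on their medians. They became 11 without B-cell replicate 1 and 14 without replicate 2. Of the 12 members below the lower quartile of all 6 arrays 10 were positive, with a median of 0.07. Of the other 9 members 5 were positive, with a median of 0.00. Among the 17 variable genes the median was also 0.04, with 13 positive, and their array medians were 5.15 and 5.16 with B cells against 4.98 and 4.98 alone. The neutrophil arrays had medians of 5.09 and 5.20 for these genes, so the higher median was not limited to co-culture with B cells. All these medians lay below the lower quartile of all genes on their arrays, where no signal above background was shown. In bulk RNA, fewer cells of a type and less RNA per cell cannot be told apart.

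Both B-cell arrays lay above both alone arrays for 4 members, all kappa variable genes, and below them for 4. Over all genes these shares were 13.5% above and 13.5% below. Igkv15-103 stood at 8.0 and 8.64 with B cells, against 7.79 and 7.88 alone, a difference of 0.48 ± 0.18 (unadjusted p = 0.0270, adjusted p = 1.00). Most of it came from B-cell replicate 2, without which the difference was 0.16. Igkv8-30 stood at 5.78 and 5.79 with B cells, against 5.20 and 5.45 alone (0.46 ± 0.15, unadjusted p = 0.0130, adjusted p = 1.00). The other 2 were Igkv4-72 at 0.33 ± 0.15 and Igkv8-19 at 0.32 ± 0.11. Like Igkv8-30, both lay below the lower quartile of every array, and a difference between such low values has no exact size.

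The 4 lower members with B cells did not pass either. Igkv1-133 stood at 6.03 and 6.32 with B cells, against 6.74 and 6.57 alone (-0.48 ± 0.13, unadjusted p = 0.00471, adjusted p = 1.00). Igkv4-91 stood at 7.29 on both B-cell arrays, against 7.60 and 7.49 alone (-0.26 ± 0.11). Igkv4-70 differed by -0.05 ± 0.10. Ighg3, the fourth, is described with the neutrophil comparison.

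Markers of carried B cells showed little movement in the same arrays. The mature B cell list had array means of 8.50 and 8.50 with B cells, against 8.49 and 8.49 alone, with 0 of 19 measured genes called and a median difference of -0.01. Its members with the largest differences were Cd69, an early activation antigen, at -0.34 ± 0.11, and Bank1, a scaffold protein of B cell signalling, at 0.31 ± 0.11. Ms4a1, the gene of CD20, and Fcer2a, the gene of the low-affinity IgE receptor CD23, are carried by mature B cells and were dim in DP42 cells. They differed by 0.00 and 0.03 with B cells minus alone. Cd83, also on the list, differed by 0.28 ± 0.10 (limma unadjusted p = 0.0210) and did not pass. Of the 19 differences 8 were positive. In cells alone 4 of the 19 genes already lay above the 90th percentile, where carried RNA would change the signal less. Ms4a1, Fcer2a and Cd83 were singled out after their values were seen.

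**Figure D2:**
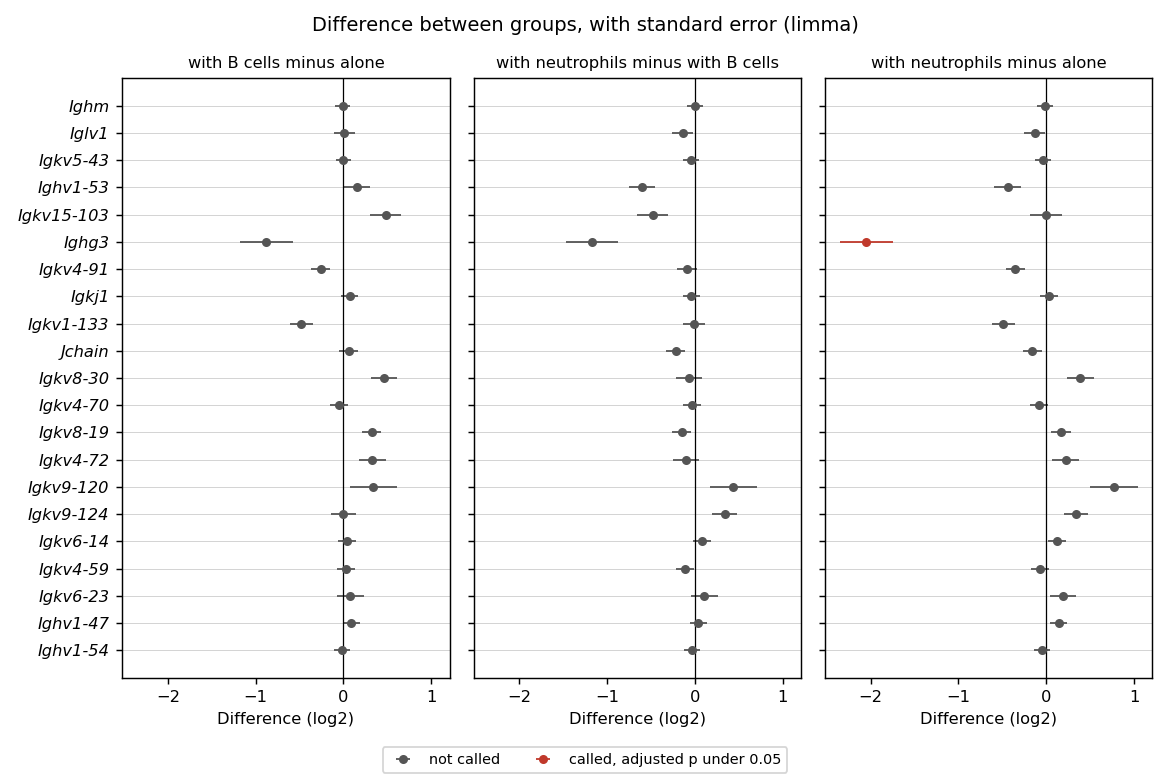
Fitted differences in log2 expression (points) with their standard errors (bars) for the 21 immunoglobulin genes, in rows, under 3 comparisons, in panels. Among 63 estimates only Ighg3 with neutrophils minus alone, drawn in red at -2.05, passed an adjusted p of 0.05.

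The next comparison was between the co-cultures, neutrophils minus B cells. In limma's test 0 of 21 members passed, against 0.0496% of all genes (0.0316% higher and 0.0180% lower, which is 7 and 4 genes, against 18 and 44 with arrays centred on their medians and 1 and 0 with quantile normalisation), and at an unadjusted p under 0.05 there were 1 higher and 3 lower, beside 1797 and 2652 of all genes. The median difference was -0.04, against 0.01 for all genes, with 6 of 21 positive, which became 12 with quantile normalisation and 11 with arrays centred on their medians. Both neutrophil arrays lay above both B-cell arrays for 2 members and below for 8, where all genes gave 30.0% and 26.7%.

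Ighv1-53 stood at 8.36 and 8.34 with neutrophils, against 8.71 and 9.20 with B cells, a difference of -0.60 ± 0.15 (adjusted p = 0.147). Igkv15-103 stood at 7.90 and 7.78 with neutrophils, against 8.0 and 8.64 with B cells (-0.48 ± 0.18, adjusted p = 0.217). Ighg3 differed by -1.17 ± 0.30 (adjusted p = 0.147). These 3 genes passed without B-cell replicate 1, at -0.84, -0.80 and -1.72, an array without which 5453 of all genes passed. The 2 higher members were the dim genes Igkv9-120 at 0.44 ± 0.27 and Igkv9-124 at 0.34 ± 0.14, neither of which passed.

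The last comparison was neutrophils minus alone. Of 21 members 1 was called, Ighg3, which fell, and 0 were called higher. At an unadjusted p under 0.05, 3 members were higher and 4 lower, beside 1324 and 2599 of all genes. Over all genes 1.49% were called, 0.131% higher and 1.36% lower. Those 29 higher and 302 lower genes became 7 and 15 with quantile normalisation. The members' median difference was -0.01, against 0.02 for all genes, with 10 of 21 positive. Both neutrophil arrays lay above both alone arrays for 5 members and below for 5, where all genes gave 35.6% and 27.4%.

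Ighg3, the gamma 3 constant gene used by IgG3 antibodies, was represented by probe set 17284614, the brighter of the 2 named for it alone. It stood at 5.61 and 5.91 with neutrophils, 6.37 and 7.48 with B cells, and 7.90 and 7.72 in cells alone. The groups did not overlap, and the B-cell arrays lay between the others, 1.11 apart. With neutrophils minus alone the difference was -2.05 ± 0.30, a fold of 0.241 (limma adjusted p = 0.0236), with an interval of -2.72 to -1.38. Both neutrophil values lay below the lower quartile of their arrays, at 6.21 and 6.20, so the fold and interval describe these signals and give no exact size of a change in RNA. With B cells minus alone it was -0.88 ± 0.30 and did not pass (unadjusted p = 0.0161, adjusted p = 1.00). Without B-cell replicate 1 that difference was -0.33, and without replicate 2 it was -1.44.

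The call on Ighg3 was not shared by the other probe set named for the gene alone. Probe set 17284344 stood at 6.66 and 6.46 with neutrophils, 6.63 and 6.70 with B cells, and 6.69 and 6.59 alone. Its difference with neutrophils minus alone was -0.09 (adjusted p = 0.657 in place of the brighter probe set). Probe set 17284354, named for Ighg3, Ighv1-47 and Ighm together, averaged 13.35 with neutrophils and 13.38 alone, a difference of -0.02 ± 0.09. Which transcript each of these probe sets registers is not known here. The call was also lost without either alone array (adjusted p = 0.177 and 0.0903) and without either neutrophil array (adjusted p = 0.0837 and 0.135), while the difference stayed between -2.20 and -1.90.

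Probe sets named for Ighm disagreed in the same way. The brightest, 17284349, gave the steady 13.31 ± 0.06 with neutrophils, 13.31 ± 0.04 with B cells and 13.32 ± 0.03 alone (SD, n = 2 each). The other 6 averaged 3.67 to 8.24 with neutrophils, against 4.74 to 8.98 in cells alone. All 6 lay lower with neutrophils, by -0.32 to -1.58. Probe set 17284605 stood at 7.68 and 7.10 with neutrophils, 8.29 and 9.25 with B cells, and 9.05 and 8.90 alone. In place of the brightest it gave -1.58 with neutrophils minus alone (adjusted p = 0.0414), the 1 alternative Ighm probe set to pass. Probe set 17284507 stood at 5.73 and 6.42 with neutrophils, 6.92 and 7.39 with B cells, and 7.16 and 7.03 alone, and did not pass (adjusted p = 0.0699). These probe sets were singled out after their values were seen.

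**Figure D3:**
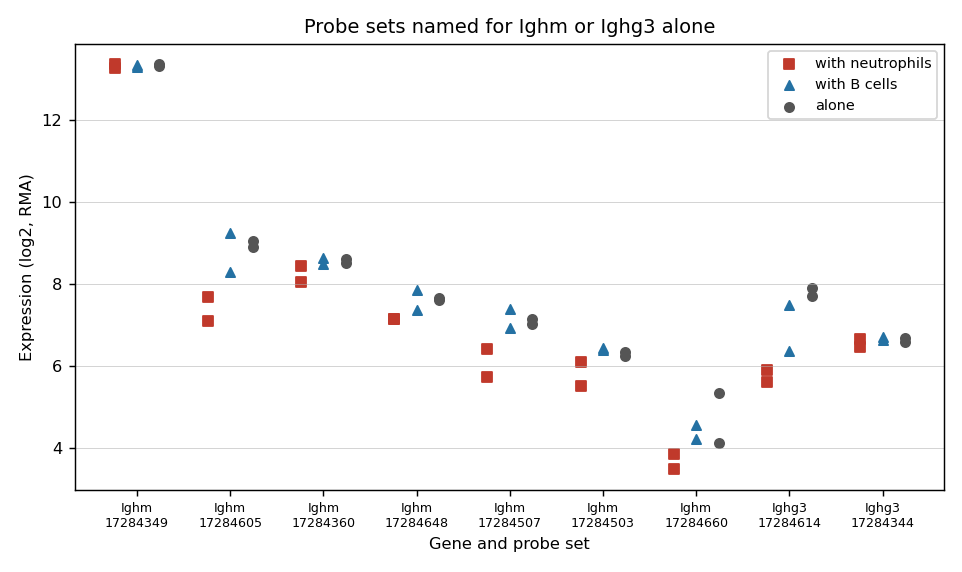
Expression (y axis, log2) on each array for the 7 probe sets named for Ighm and the 2 named for Ighg3, labelled by gene and probe set on the x axis. The probe set at the top left is steady near 13.3 in every group, while 17284605 and 17284614 lie lower with neutrophils.

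The array mean of a class that myeloma cells do not normally use also differed between groups. The mean of 1394 olfactory and vomeronasal receptor genes was 5.13 and 5.05 with neutrophils, 5.27 and 5.59 with B cells, and 5.56 and 5.51 alone. Of those receptor genes 181 were called lower and 0 higher with neutrophils minus alone. B-cell replicate 1 was the lower of its group both for this mean and for Ighg3, at 6.37. With the receptor mean as a covariate the Ighg3 difference with neutrophils minus alone was -0.65 (adjusted p = 0.871), that of Ighv1-53 was 0.18 in place of -0.44, and that of Igkv15-103 was 0.85 (unadjusted p = 0.00411, adjusted p = 0.871) in place of 0.00. Under this setting 0 of all genes were called in place of 331, and the neutrophil arrays have the lowest receptor means, so receptor mean and group cannot be fully told apart. With neutrophils minus alone the receptor genes had a median difference of -0.37. The 12 dim members had 8 positive differences, 4 negative and a median of 0.16. The other 9 members had 2 positive, 7 negative and a median of -0.13. The brightest Ighm probe set did not move with the receptor mean, staying between 13.27 and 13.35.

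**Figure D4:**
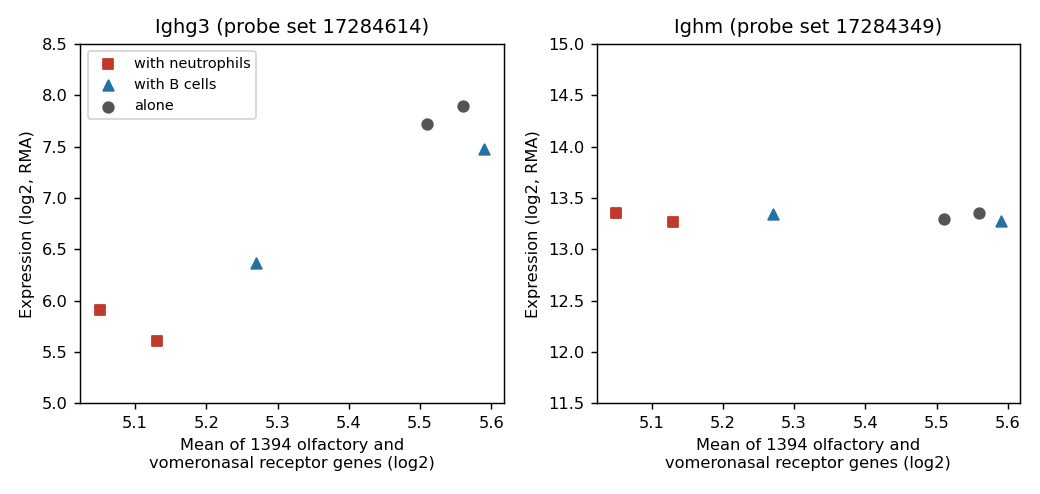
Expression of Ighg3 (left) and of the brightest Ighm probe set (right) on the y axes (log2), against the mean of 1394 olfactory and vomeronasal receptor genes on each array (x axis, log2). Both y axes span 3.5 log2 units. Ighg3 is low on the arrays with a low receptor mean, and Ighm is level.

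The remaining members that separated in this comparison did not pass. Igkv1-133 stood at 6.25 and 6.08 with neutrophils, against 6.74 and 6.57 alone (-0.49 ± 0.13, adjusted p = 0.111). Ighv1-53 stood at 8.36 and 8.34 with neutrophils, against 8.75 and 8.85 alone (-0.44 ± 0.15, adjusted p = 0.191). Igkv4-91 differed by -0.35 ± 0.11 (adjusted p = 0.171). Higher with neutrophils were 5 dim members, Igkv9-120 at 0.77 ± 0.27 (adjusted p = 0.206), Igkv8-30 at 0.39 ± 0.15, Igkv9-124 at 0.34 ± 0.14, Ighv1-47 at 0.14 ± 0.10 and Igkv6-14 at 0.12 ± 0.10. Igkv9-120 stood at 5.42 and 5.34 with neutrophils, against 4.07 and 5.14 alone, and its value rested on alone replicate 1, without which it was 0.24.

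Neutrophil markers differed in the same comparison. Of 18 measured neutrophil genes 5 were called higher and 0 lower with neutrophils minus alone, beside 0.131% and 1.36% of all genes. Of the 18 differences 17 were positive. Array means of that list were 7.18 to 7.24 with neutrophils against 6.76 to 6.83 alone. With B cells minus alone 12 of the 18 differences were positive and 0 genes were called, with array means of 6.80 to 6.88 with B cells. Ngp, a neutrophil granule protein gene, stood at 7.27 and 7.70 with neutrophils, 5.93 and 6.11 with B cells, and 5.57 and 5.76 alone. Its limma adjusted p for neutrophils minus alone was 0.00498. Retnlg, Lcn2 and S100a8, which encode secreted or cytosolic neutrophil proteins, rose by 1.19, 0.68 and 0.61 with neutrophils minus alone. Ngp, Retnlg and S100a8 lay below the lower quartile in cells alone, and the size of their rise is likewise not exact. The part of carried neutrophil RNA in the immunoglobulin values was not tested.

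Many genes around immunoglobulin expression were bright in the same cells. Of 123 genes on the lists other than the neutrophil list, limma called 0 in each of the 3 comparisons. At an unadjusted p under 0.05 there were 3 higher and 2 lower with B cells minus alone, 7 and 7 with neutrophils minus B cells, and 6 and 4 with neutrophils minus alone. Over all 22180 genes these counts were 358 and 511, 1797 and 2652, and 1324 and 2599. Of 12 measured genes of the B-cell receptor complex and its signalling, 9 lay above the 90th percentile on both alone arrays. Cd79a, a signalling chain that carries surface immunoglobulin, averaged 12.18 with neutrophils, 12.26 with B cells and 12.15 alone, and its partner Cd79b 12.56, 12.46 and 12.50. Blnk, an adaptor downstream of the receptor, differed by -0.10 ± 0.10 with B cells minus alone.

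The list of surrogate light chain and recombination genes had 4 of 11 members above the 90th percentile. Igll1, which encodes the lambda 5 part of the surrogate light chain, stood at 13.37 and 13.33 with neutrophils, 13.34 and 13.29 with B cells, and 13.28 and 13.31 alone. Vpreb3, a relative of its partner chains, averaged 10.78 with neutrophils, 10.63 with B cells and 10.81 alone. Vpreb1, a partner chain of lambda 5, averaged 6.24, 6.21 and 6.31 in that order of groups, and Vpreb2, the other partner chain, 8.70, 8.67 and 8.69. Rag2, a subunit of the recombinase, averaged 6.37 with neutrophils, 6.30 with B cells and 6.33 alone, near the lower quartile of all genes.

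Among 16 transcription regulators of immunoglobulin genes 11 lay above the 90th percentile. Pou2af1, the coactivator of octamer factors at immunoglobulin promoters, averaged 12.29 with neutrophils, 12.32 with B cells and 12.25 alone. The largest differences with B cells minus alone were -0.17 ± 0.09 for Spib and 0.13 ± 0.11 for the octamer factor gene Pou2f2. Pax5, which maintains B-cell identity and is normally silenced in plasma cells, averaged 11.03 with neutrophils, 10.95 with B cells and 10.98 alone. Prdm1, which drives plasma cell differentiation, averaged 6.96 with neutrophils, 6.81 with B cells and 6.74 alone, below the median of all genes.

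Among 27 folding and secretion genes 12 lay above the 90th percentile. Mzb1, a chaperone of IgM assembly, averaged 12.15 with neutrophils, 12.14 with B cells and 12.13 alone. With neutrophils minus alone all 27 differences were positive, with a median of 0.10, and 0 passed (smallest adjusted p = 0.0974, for the chaperone Dnajb9 at 0.46). Of all genes 12066 were positive, as were 8 of 8 switching and hypermutation genes, 14 of 16 regulators and 10 of 12 receptor complex genes. Creld2 at 0.21 ± 0.12 and Ssr4 at -0.17 ± 0.12 had the largest differences with B cells minus alone.

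Of 8 genes of class switching and hypermutation 3 lay above the 90th percentile. With B cells minus alone the mismatch repair gene Msh6 differed by -0.18 ± 0.15 and the translesion polymerase gene Polh by -0.12 ± 0.12. Immunoglobulin receptors and transporters were mostly dim, with 1 of 14 above the 90th percentile, and Fcamr, a receptor of IgA and IgM, differed by 0.28 ± 0.17 with B cells minus alone, and the IgG receptor gene Fcgr4 by 0.22 ± 0.11. The plasma cell list had 4 of 11 members above it and 0 called. Its Tnfrsf17, the gene of BCMA, averaged 5.82 with neutrophils, 6.13 with B cells and 6.03 alone. Sdc1, the gene of the plasma cell surface protein CD138, averaged 8.60 with neutrophils and 8.49 both with B cells and alone, and Tnfrsf13b, the gene of TACI, 8.16, 7.93 and 8.01. The plasma cell genes Slamf7, Ell2 and Irf4 averaged 11.96, 10.85 and 10.79 in cells alone, above the 90th percentile, and Xbp1 10.03. Of this list, Prdm1 and Tnfrsf17 lay below the median of all genes, and Tnfrsf17 below the lower quartile. The T and NK cell list had 0 of 15 members above the 90th percentile and 0 called, with medians of 0.02 for B cells minus alone and -0.01 for neutrophils minus alone. Its Cd3g and Nkg7 stood 0.24 higher with B cells than alone (SE 0.12 and 0.11), as did Thy1 (SE 0.09). Cd8b1 went the other way, at -0.22 ± 0.09, and of the 15 differences 8 were positive. Cd79b, Igll1, Vpreb2, Rag2, Pou2af1, Pax5, Prdm1, Sdc1, Slamf7, Ell2, Irf4, Xbp1, Mzb1, Dnajb9, Thy1 and Cd8b1 were named after their values were seen.

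**Figure D5:**
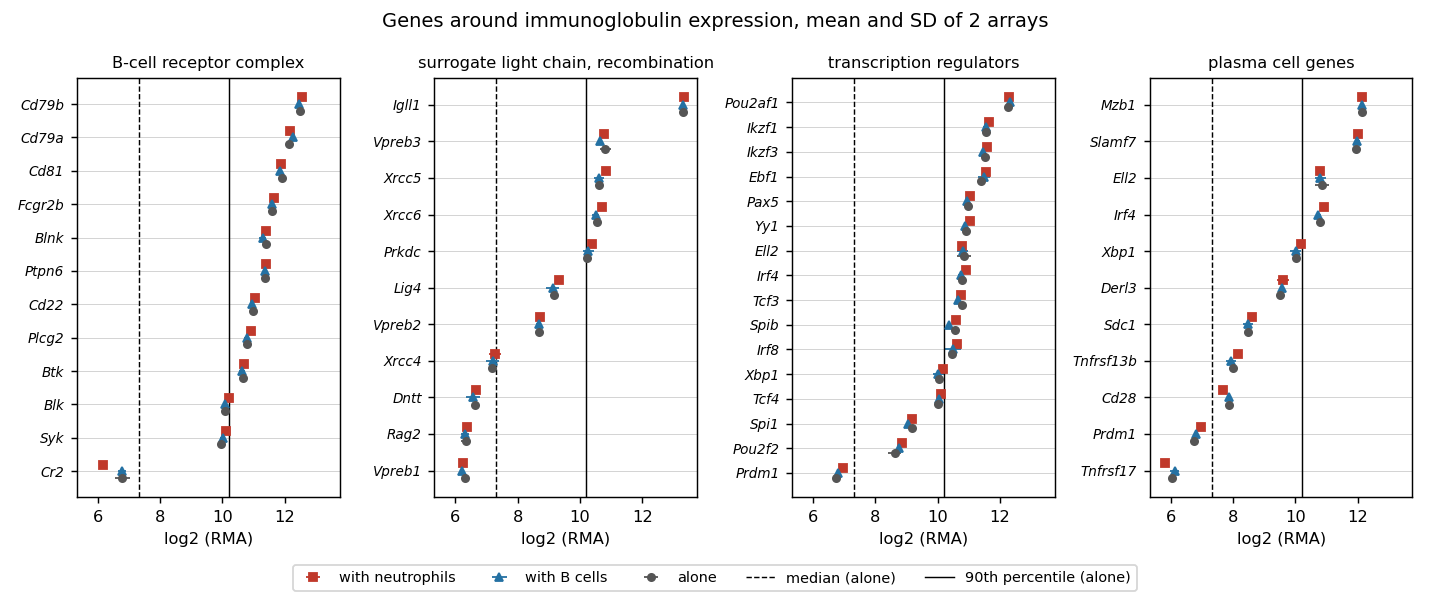
Expression (x axes, log2, mean and SD of 2 arrays) of genes around immunoglobulin expression in 4 panels, with the median and the 90th percentile of all genes in cells alone as vertical lines. Igll1, Cd79b and Mzb1 lie far right and Vpreb1, Rag2, Prdm1 and Tnfrsf17 left of the median in every group.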

How the data were processed

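Deposited values were log2 expression, 1 value per probe set and array. Per the submitters' processing notes, RMA was used. RMA corrects background, normalises between arrays and summarises probes. Whether values were centred further is not stated, and its version and annotation are not given in the sources used here. Values ran from 3.04 to 14.03. Of 41345 probe sets, 23521 were named with 1 gene, 1814 with several and 16010 were unnamed here, 190 of them control rows. The brightest probe set was kept for each of 22180 genes. No detection call was used, and the number of arrays limits the precision.

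A model of 3 group means was fitted to the 6 arrays together (limma 3.58.1, R 4.3.3; 3 residual degrees of freedom, prior of 5.55), with two-sided eBayes statistics and Benjamini-Hochberg adjustment over all genes. Called means an adjusted p under 0.05. Differences are the first group minus the second, on the log2 scale. Intervals are 95% intervals of the fit. With 2 arrays against 2, an exact permutation test cannot go below p = 0.333, so none was used.

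The members and 10 gene lists (155 symbols, 141 measured) were chosen with earlier results of these data known. Named genes were the constant genes, Jchain, members above the 90th percentile in cells alone, per comparison and direction the called members or, failing these, the 5 non-overlapping members of largest difference, and up to 4 called or 2 other genes of each list. Genes named outside this are said to be so in the text. Reference symbols came from the RefSeq table of GRCm38.p6.

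The procedure was tested on simulated data for neutrophils minus alone, with 200 of 22180 genes changed in 20 simulations, and recovered 79.3% of genes changed 1.5-fold, 99.7% at 2-fold and 100% at 4-fold, with 8.33% false calls. Plots used matplotlib 3.10.9 in Python 3.11.15.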

Additional observations from a re-analysis of the deposited data

Results flagged for a closer look

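A probe set outside the gene results, because it names several genes (17459423, named for Igkv4-53, Igkj1 and Igkv6-23), was higher in co-culture than in cells alone. It stood at 8.23 and 8.32 with neutrophils, 7.95 and 7.79 with B cells, and 7.73 and 7.61 alone. The difference with neutrophils minus alone was 0.61 ± 0.11 and did not pass in limma over all probe sets (unadjusted p = 0.00120, adjusted p = 0.114). Which of the 3 genes it registers is not known from the files. The single-gene probe sets of Igkj1 and Igkv6-23 differed by 0.03 and 0.19. Only probe sets higher in co-culture than alone could be flagged. Probe set 17284633, named for Ighv1-72 and Ighm, went the other way. It stood at 8.03 and 7.99 with neutrophils, 8.42 and 8.77 with B cells, and 8.58 and 8.50 alone. Its difference with neutrophils minus alone was -0.53 ± 0.13 and did not pass in the same test (adjusted p = 0.144). It was singled out after its values were seen.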

How the results depend on the processing

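No member was called for B cells minus alone under any of the 15 alternatives, and its count over all genes was 0, or 1 among brighter genes and 1 with trend and robust eBayes. Members called for neutrophils minus alone (1) became 0 among brighter genes, where 6 members were left, 0 with trend and robust eBayes, 0 with quantile normalisation, 0 with the receptor mean as a covariate, 0 over all probe sets (chosen after seeing the data), 2 with the mean of probe sets (Ighg3 and Ighm) and 3 with only the 4 arrays compared (Ighg3, Ighv1-53 and Igkv1-133). Leaving out each array gave 0 to 3 for this comparison, and 0 to 3 for neutrophils minus B cells, where the 3 came without B-cell replicate 1. Without alone replicate 2 the member called was Igkv9-120 (1.31). With an array left out, the lone array of its group is assumed to vary like the other groups. Over all genes, the 331 called for neutrophils minus alone became 90 among brighter genes, 22 with quantile normalisation, 555 with arrays centred on medians, 1338 with 4 arrays, 0 with the receptor covariate, 0 over all probe sets and 5 to 1338 leaving out an array. The 11 for neutrophils minus B cells became 91 among brighter genes, 33 with trend and robust eBayes, 1 with quantile normalisation, 62 with centred arrays, 1 with 4 arrays, 0 with the receptor covariate, 0 over all probe sets and 1 to 5453 leaving out an array, the most without B-cell replicate 1. Bright members in cells alone (3) became 7 above the 50th percentile, 1 above the highest receptor gene and 1 with the mean of probe sets. Apart from fewer genes or samples tested, the cause of these changes was not tested. Replicate numbers name arrays only: deviations of equal-numbered arrays correlated across genes at -0.0742, 0.0651 and -0.151. With the replicate number as a block, 0 members were called for B cells minus alone, 0 for neutrophils minus B cells and 1 for neutrophils minus alone, with 0, 9 and 373 of all genes. Of 900 values of single members under these alternatives 782 kept within the spread between arrays or kept their call, and none that was called turned its sign. Settings that change only the error estimate or the set of genes tested leave a member's difference as it was. Many of these values could therefore not move, and the count does not measure robustness.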
